A study of Mus musculus with 34 samples.

Results

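The genes described here are 8 genes of adrenergic signalling and electrical conduction in the mouse heart: the receptors Adrb1, Adra1a and Adra1b, the receptor regulators Grk5 and Rgs2, the sodium channel subunit Scn4b, and the connexins Gja1 and Gja5. They were chosen by gene symbol, and all 8 were found in both deposited tables, among 14552 genes in the time-course table and 17406 in the modRNA table. The time-course table holds left ventricle (LV) from 3 sham hearts and from hearts collected 4 h (n = 3) and 24 h (n = 4) after myocardial infarction (MI), with no injection. By the paper's account this was tissue of the ischemic area, or of the matching area in sham hearts, and not the whole LV. The modRNA table holds LV from 2 sham hearts taken at 4 h and from infarcted hearts given AC or Luc modified mRNA (modRNA), collected at 4 h (n = 4 each), 24 h (n = 3 each) and 48 h (n = 4 each). Luc encodes firefly luciferase and served as the control message, and AC is named as in the labels, which do not spell it out. The paper describes MI in CFW mice, made by tying off the left anterior descending coronary artery for good. In its modRNA protocol the message was injected into the infarct border zone during the same operation. It does not describe the sequenced AC and Luc samples themselves. The sham hearts of the time course are titled sham, but their operation label gives no operation. No age is given for either table.

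Noradrenaline and adrenaline act on the heart through β1 receptors, which couple to Gs and raise cAMP, and through α1 receptors, which couple to Gq and phospholipase C. GRK5 phosphorylates active receptors and so uncouples them from G proteins, and RGS2 speeds the inactivation of Gq. The impulse itself spreads through sodium channels, whose gating β4 (Scn4b) tunes, and through gap junctions built of connexin 43 (Gja1) in working myocardium and of connexin 40 (Gja5) in the atria, the fast conduction system and arterial endothelium.

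Values are CPM, reads scaled by the authors to a common TMM-adjusted library size, and they are not divided by gene length, so levels are compared between libraries and not between genes. Fold changes were tested with limma on log2(CPM + 1), a scale that shrinks the change of low genes, and q is the p adjusted by Benjamini-Hochberg over every gene tested in that table (12487 and 12555, all 8 genes included). A gene rose or fell where q was under 0.05. The tables were normalized separately and each was compared only with its own sham hearts. Within the modRNA table the libraries of different times also carry different label styles and index numbers, so that time and library set cannot be told apart, whereas AC and Luc can be compared within a time. The 24 h titles of this table all carry the letters Br, which the titles do not spell out.

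Some libraries stood apart. Among the 24 h libraries of the time course, library G had 283 CPM of summed neutrophil markers, against 769.5 to 1811 in the other 3, and 35358 CPM of summed cardiomyocyte markers, against 20873 to 26477. In the modRNA table, the 4 Luc libraries at 48 h formed pairs over all tested genes: 1 with 3 and 2 with 4 each correlated at r = 0.984, and libraries of different pairs at 0.945 to 0.969. Calls that change without library G, or without either Luc pair, are given with and without them. The Luc pairs were picked after seeing these same values. A call gained or lost without a pair shows its dependence on those libraries and is no separate test. Cardiomyocyte markers were high in all libraries (summed 20873 to 51547 CPM in the time course), as labelled LV should have. The atrial genes Sln and Myl7 lay at or under 0.255 CPM in the sham and 4 h libraries of the modRNA table, but Myl7 ranged from 9.06 to 112 CPM at 24 h and from 1.49 to 24.8 CPM at 48 h.

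The promoters are shown because β1 receptors act on transcription through cAMP, so that the bases upstream of the genes can be read beside their changes. RefSeq windows on GRCm38.p6, the build also called mm10, were found for 7 of the 8 genes, with none for Adra1a. The 250 bases before the RefSeq start were searched on both strands. This start lay 255 bp (Adrb1) and 418 bp (Scn4b) upstream of the gene start in the deposited data, which is the one given below. Adra1b had a further window that started 64749 bp from its deposited start, and a match in either window was counted. All other starts were within 1 bp. The core of the cAMP response element, TGACG, was present upstream of 4 of these 7 genes, Adrb1, Rgs2, Gja1 and Gja5, and in 17.8% of the 32851 promoters of the table. Gja1 and Rgs2 each held it at 2 places. The full palindrome TGACGTCA (1.55% of promoters), the E-box CACGTG (6.02%), the T-box site AGGTGT (11.8%) and the MEF2 core (3.2%) were found upstream of none of the 7. The spaced core of glucocorticoid receptor elements, ACANNNTGT (5.84% of promoters), was found upstream of Grk5, and the AP-1 site TGANTCA (6.75%) upstream of Gja1 and Adra1b. A match describes letters in the window and is no evidence of binding. For each gene a stretch of 30 bases is printed in the direction of transcription, with the match in capitals, the TGACG core in the first 4 and the ACANNNTGT core in Grk5.
Adrb1 (chr19:56722015-56722044, plus strand): gctgcgggagccTGACGcgcggccccgggg
Rgs2 (chr1:144004199-144004228, minus strand): ttggggcgtggcTGACGcctccaggtcccg
Gja1 (chr10:56377087-56377116, plus strand): ccccgcagtagcTGACGtacatctagagct
Gja5 (chr3:97032166-97032195, plus strand): ggacagggacagTGACGgcggagggcagca
Grk5 (chr19:60889575-60889604, plus strand): taattcgactACAATATGTttggttataat
Of the 4 genes that hold the TGACG core, Adrb1 and Gja1 fell at 24 h in the time course, while Rgs2 and Gja5 did not pass the test. The searched genes without the core, Adra1b, Scn4b and Grk5, all passed, as did 66% of all tested genes. The part of the motif in these changes was not tested.

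At 24 h post-MI, 6 of the 8 genes differed from sham in the time course: Adra1a, Adra1b, Adrb1, Scn4b and Gja1 fell and Grk5 rose. At that time 66% of all tested genes passed the same threshold, so that the count of 6 is near the background, and the sizes and directions carry the description. The median log2 fold change of the 8 genes was -0.88, against 0.04 over all tested genes. The same 6 passed without library G, with Adra1a at -2.61 and Gja1 at -1.04. At 4 h only Adrb1 had fallen, where 2.37% of all tested genes passed. Between 4 h and 24 h, 4 of the 8 changed (Adra1a, Adra1b and Scn4b down, Grk5 up), against 63.9% of all genes. Groups without overlap were common. Against sham they were found for 28.8% of all tested genes at 4 h and 64% at 24 h, and between 4 h and 24 h for 62.2%. The summed cardiomyocyte markers of the same libraries were 48004 to 51283 CPM in sham, 47472 to 51547 at 4 h and 20873 to 35358 at 24 h, and the summed neutrophil markers 1.29 to 1.77, 7.26 to 29.9 and 283 to 1811 CPM. In bulk tissue, fewer cells of a type and less RNA per cell cannot be told apart, and the part of these markers in the changes was not tested.

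**Figure D1:**
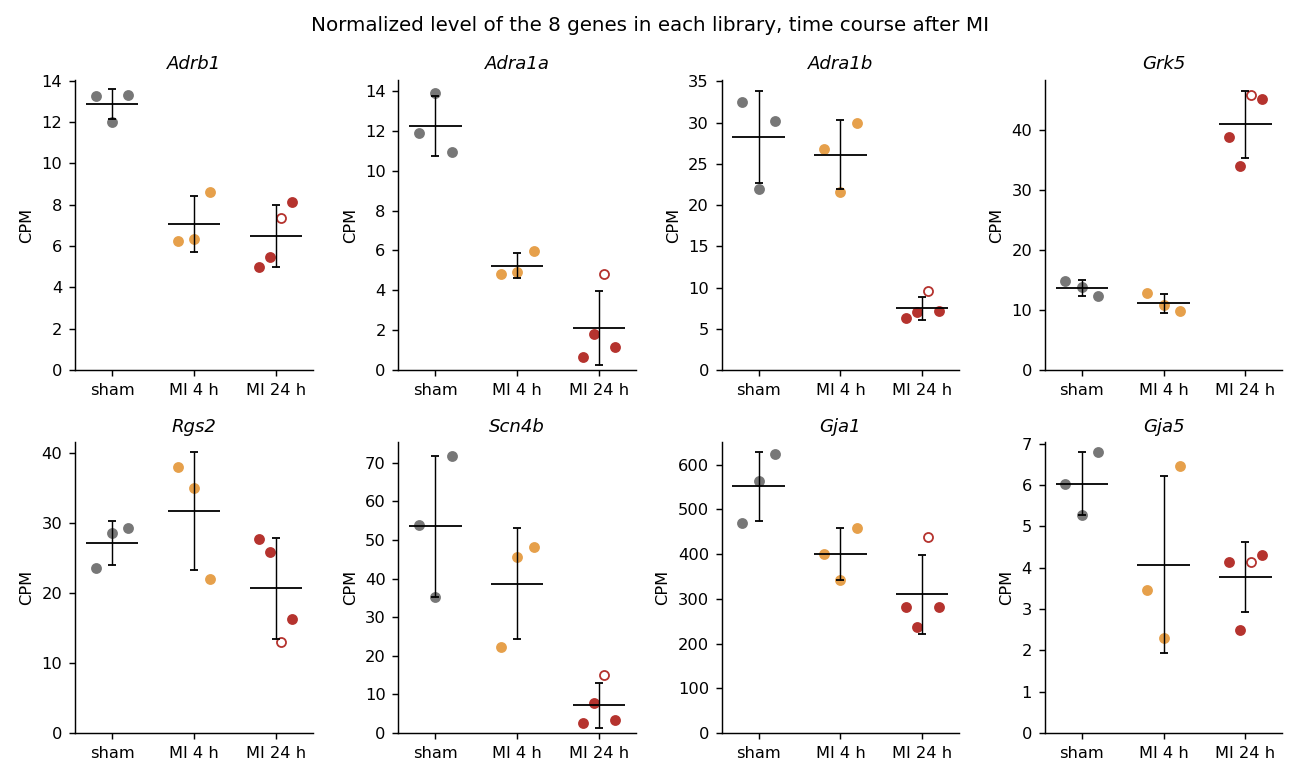
Level of the 8 genes in CPM (y axis, from 0) in each library of the time course (sham n = 3, MI 4 h n = 3, MI 24 h n = 4). Points are libraries, the open point is the 24 h library G, and bars are means ± SD. Adra1a falls from a mean of 12.2 CPM in sham to 2.12 at 24 h, and Grk5 rises from 13.7 to 40.9.

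Adrb1 encodes the β1 receptor, the main adrenergic receptor of the cardiomyocyte (chromosome 19, 56722372 to 56724863, plus strand, mm10). Its level was 13.3, 12.02 and 13.3 CPM in the sham hearts D, H and I, 6.24, 6.37 and 8.63 CPM at 4 h in C, D and E, and 4.99, 5.47, 7.37 and 8.14 CPM at 24 h in C, D, G and H. All 7 infarcted libraries lay below the lowest sham library, and the levels at 4 h and 24 h overlapped. Adrb1 fell by 0.91 ± 0.16 (SE) on the log2 scale at 24 h (q = 0.00051) and by 0.79 ± 0.18 at 4 h (q = 0.042). The 4 h call was lost without any one of sham D, H or I or of MI 4 h C or D, with q of 0.101 to 0.182 and the log2 fold change between -0.92 and -0.72 over all single libraries left out. From 4 h to 24 h it moved by -0.12 ± 0.16 (q = 0.55).

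Adra1a encodes the α1A receptor (chromosome 14, 66635251 to 66771169, plus strand), and it fell further. The sham hearts had 11.9, 13.9 and 10.95 CPM, the 4 h hearts 4.81, 4.93 and 5.96 CPM, and the 24 h hearts C, D, G and H 0.638, 1.81, 4.83 and 1.18 CPM. No infarcted library reached the sham range, and library G was the only one at 24 h within the range of 4 h. The mean at 24 h was 0.173 times that of sham (log2 fold change -2.25 ± 0.33, q = 0.00012), and from 4 h to 24 h Adra1a fell by 1.17 ± 0.33 (q = 0.0092). At 4 h the difference from sham was -1.09 ± 0.35 and did not pass (q = 0.16). The groups did not overlap, as for 28.8% of all tested genes. Without the 24 h library G the same 4 h difference had q = 0.0086. The value of 0.638 CPM in library C corresponds to about 17 reads.

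Adra1b encodes the α1B receptor (chromosome 11, 43774605 to 43901238, minus strand) and kept its level longer. The sham hearts had 32.5, 22.0 and 30.2 CPM and the 4 h hearts 26.8, 21.6 and 29.9 CPM, which overlapped. The 24 h hearts had 6.34, 7.07, 9.54 and 7.15 CPM, all below the lowest value of the earlier groups. The log2 fold change from sham was -0.10 ± 0.18 at 4 h (q = 0.84) and -1.77 ± 0.17 at 24 h (q = 4.8e-06), and the step from 4 h to 24 h was -1.67 ± 0.17 (q = 1.0e-05). At 4 h every library lay below the sham range for the β1 and α1A receptors, as for 18% of all tested genes, and 1 of 3 did for the α1B receptor.

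Grk5 was the only one of the 8 genes that rose in the time course (chromosome 19, 60889749 to 61092556, plus strand). The sham hearts had 14.9, 13.8 and 12.3 CPM, the 4 h hearts 12.8, 10.8 and 9.79 CPM and the 24 h hearts 38.9, 34.0, 45.8 and 45.1 CPM. Every 24 h library lay above every earlier one. The mean at 24 h was 2.99 times that of sham (log2 fold change 1.51 ± 0.13, q = 2.7e-06) and 3.68 times that of 4 h (1.79 ± 0.13, q = 1.5e-06). At 4 h the difference from sham was -0.28 ± 0.14 (q = 0.35).

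Rgs2, a brake on Gq signalling (chromosome 1, 143999338 to 144004150, minus strand), did not pass in any of the 3 comparisons. Its level was 23.6, 28.6 and 29.4 CPM in sham, 38.0, 35.1 and 22.1 CPM at 4 h, and 27.7, 25.8, 13.0 and 16.2 CPM at 24 h. The groups overlapped throughout, and the 95% interval of the log2 fold change at 24 h ran from -0.995 to 0.125 (q = 0.15). The step from 4 h to 24 h was -0.62 ± 0.26 (q = 0.051), just short of the threshold, and it passed without MI 24 h C or D or without MI 4 h E, with q of 0.018 to 0.032.

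Scn4b encodes the β4 subunit of the sodium channel (chromosome 9, 45139042 to 45154062, plus strand) and had the largest fall of the 8 genes at 24 h. The sham hearts had 53.8, 35.2 and 71.7 CPM and the 4 h hearts 22.3, 45.7 and 48.2 CPM, and the 24 h hearts C, D, G and H had 2.48, 7.88, 15.0 and 3.23 CPM. Every 24 h library lay below every earlier library, and within 24 h library G was the highest. The mean was 0.134 times that of sham (log2 fold change -2.95 ± 0.48, q = 0.00024), and -3.37 ± 0.38 without library G (q = 1.2e-05). From 4 h to 24 h Scn4b fell by 2.48 ± 0.48 (q = 0.00089), while at 4 h the difference from sham was -0.48 ± 0.51 (q = 0.70).

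Gja1, the connexin of the working myocardium (chromosome 10, 56377300 to 56390420, plus strand), fell by less. The sham hearts had 470, 563 and 623 CPM, the 4 h hearts 401, 342 and 459 CPM, and the 24 h hearts 282, 238, 438 and 283 CPM. All infarcted libraries were below the lowest sham heart, and at 24 h library G stood at 438 CPM, within the range of 4 h. The log2 fold change was -0.86 ± 0.20 at 24 h (q = 0.0023) and -0.46 ± 0.21 at 4 h (q = 0.30). The step from 4 h to 24 h did not pass (-0.40 ± 0.20, q = 0.095), and without library G it was -0.58 ± 0.14 (q = 0.0037).

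Gja5, the connexin of the atria and fast conduction fibres (chromosome 3, 97032402 to 97053635, plus strand), was low throughout. It had 6.04, 5.28 and 6.79 CPM in sham, 3.46, 2.30 and 6.46 CPM at 4 h and 4.13, 2.50, 4.15 and 4.30 CPM at 24 h. All 24 h libraries were below the lowest sham library, but the log2 fold change of -0.58 ± 0.25 missed the threshold (q = 0.059). It passed without MI 4 h D (q = 0.031) or E (q = 0.017), and under median-ratio (q = 0.038) or equal-total scaling (q = 0.048). Gja5 is also the only one of the 8 whose exons overlap those of another gene in GENCODE M21, Gpr89 on the opposite strand, and whether strand was used in counting is not stated, so reads of these 2 genes may not be separated.

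In the modRNA table the infarcted hearts given Luc modRNA were compared with 2 sham hearts. Both sham hearts were taken at 4 h, so that at 24 h and 48 h infarct, time and library set cannot be told apart. At 4 h none of the 8 genes passed (limma, unadjusted p under 0.05 for 0 of them), against 1.55% of all tested genes. At 24 h 1 of 8 passed, Gja1 down, against 34.1% of all genes, and at 48 h 4 of 8 passed, Adra1a, Adra1b and Scn4b down and Grk5 up, against 30.1%. The count of 4 at 48 h was 0 without sham 2 or with only the groups compared, and 2 with array weights, with a replicate block or without Luc 48 h 1 and 3, so that it is not set apart from the background. Against sham the groups did not overlap for 55.9% of all tested genes at 24 h and 40.8% at 48 h. From Luc 4 h to 24 h this share was 48.4%, and from Luc 24 h to 48 h it was 41%. The median log2 fold change of all tested genes against sham was itself 0.16 at 24 h. It shifted to -0.11 when all libraries were scaled to equal totals, so small changes at this time depend on the scale. Summed cardiomyocyte markers were 51551 to 52868 CPM in these sham hearts, 61072 to 77516 at Luc 24 h and 35116 to 48220 at Luc 48 h. Summed neutrophil markers were 2.63 to 20.2, 43.2 to 83.8 and 110 to 402 CPM in the same groups. In the separately normalized time course they were 283 to 1811 CPM at MI 24 h. The part of these markers in the differences between the tables was not tested.

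**Figure D2:**
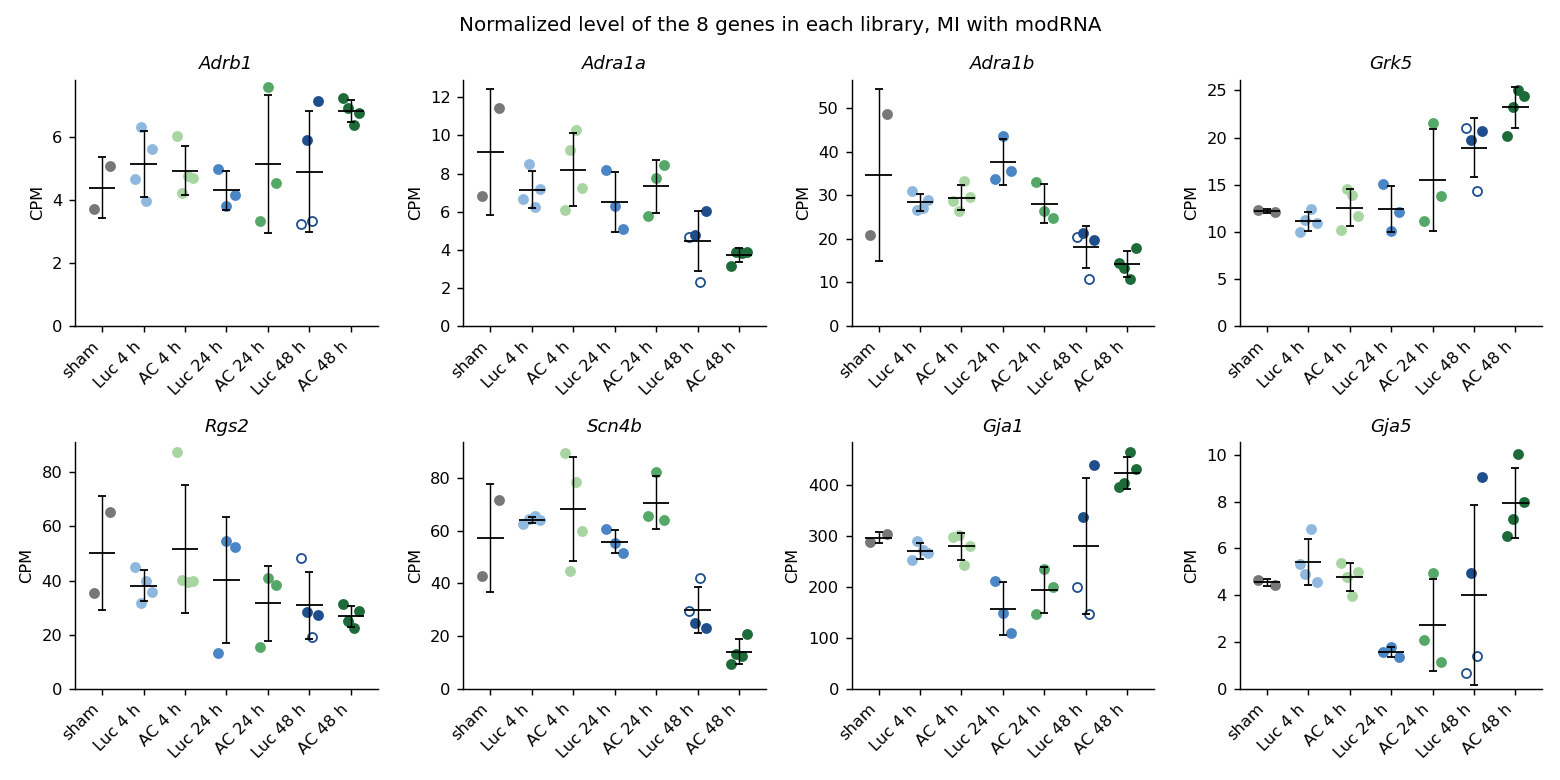
Level of the 8 genes in CPM (y axis, from 0) in each library of the modRNA table (sham n = 2, 24 h n = 3 each, 4 h and 48 h n = 4 each for Luc and AC). Points are libraries, open points are the Luc 48 h libraries 1 and 3, and bars are means ± SD. For Gja1 and Gja5 the open points lie below the other 2 Luc 48 h libraries, and Scn4b is lowest in AC 48 h.

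No receptor passed against sham at 4 h or 24 h in this table. Adra1b had 20.8 and 48.6 CPM in the sham hearts, 26.6 to 30.9 CPM at Luc 4 h (median 28.1), 33.8, 43.7 and 35.5 CPM at Luc 24 h, and 20.5, 21.4, 10.8 and 19.8 CPM at Luc 48 h in libraries 1 to 4. The sham hearts differed from each other by more than the Luc groups did, and the Luc 48 h values overlapped with the lower of them. The log2 fold change at 48 h was -0.83 ± 0.26 (q = 0.020), which was lost without Luc 48 h 3 (-0.61, q = 0.066) and without sham 2 (-0.23 ± 0.28, q = 0.58). Without Luc 48 h 1 and 3 it was -0.61 (q = 0.11), and without 2 and 4 it was -1.04 (q = 0.0096). Against Luc 24 h, whose libraries were all higher, Adra1b fell by 1.05 ± 0.23 at 48 h (q = 0.0012), which passed whichever single library was left out, but not with equal totals (-0.59, q = 0.065). From Luc 4 h to Luc 24 h Adra1b differed by 0.39 ± 0.23 (q = 0.20). This step passed as a rise with array weights (0.47, q = 0.030) and with only the groups compared (q = 0.019). Over single libraries left out, Adra1b at Luc 24 h against sham ran from -0.37 to 0.82.

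Adra1a had 6.81 and 11.5 CPM in sham, 6.67, 8.49, 6.23 and 7.18 CPM at Luc 4 h, 8.21, 6.28 and 5.09 CPM at Luc 24 h, and 4.67, 4.76, 2.32 and 6.06 CPM at Luc 48 h. The 48 h libraries all lay below the lower sham heart, with a log2 fold change of -0.91 ± 0.25 (q = 0.0095), and without sham 2 this was -0.57 ± 0.31 (q = 0.19). Without Luc 48 h 1 and 3 it was -0.63 (q = 0.079), and without 2 and 4 it was -1.18 (q = 0.0021). Against Luc 24 h the difference of -0.50 (q = 0.078) passed without Luc 48 h 2 and 4 (-0.77, q = 0.024) or 4 alone (-0.64, q = 0.031). Adrb1, lower in every infarcted heart of the time course, did not pass at any time here, with 3.72 and 5.08 CPM in sham, 3.96 to 6.32 CPM at Luc 4 h, 3.80 to 4.996 CPM at Luc 24 h and 3.25, 5.90, 3.35 and 7.13 CPM at Luc 48 h. Its log2 fold change at 24 h was -0.02, with a 95% interval from -0.57 to 0.54.

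Grk5 had 12.3 and 12.1 CPM in sham, 9.96, 11.2, 12.4 and 10.9 CPM at Luc 4 h and 15.0, 10.1 and 12.1 CPM at Luc 24 h. At Luc 48 h it had 21.0, 19.7, 14.4 and 20.7 CPM, all above both sham hearts. The rise was 0.58 ± 0.21 over sham (q = 0.036) and 0.57 ± 0.18 over Luc 24 h (q = 0.015). The first of these lost its call without either sham heart or without Luc 48 h 1, 2 or 4 (q of 0.062 to 0.14), and the second without Luc 24 h C (q = 0.092). With Luc 2 and 4 left out together, neither passed (0.48, q = 0.13, and 0.47, q = 0.11). At 24 h the log2 fold change from sham was 0.01 ± 0.22.

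Scn4b had 42.8 and 71.6 CPM in sham, 62.4, 64.4, 65.4 and 64.0 CPM at Luc 4 h, and 60.5, 55.4 and 51.5 CPM at Luc 24 h. At Luc 48 h it had 29.3, 24.9, 42.2 and 23.1 CPM, all below the lower sham heart. The fall from sham was -0.91 ± 0.27 (q = 0.014), or -0.54 ± 0.33 without sham 2 (q = 0.25), and the fall from Luc 24 h was -0.92 ± 0.24 (q = 0.0043), which passed whichever single library was left out. Without Luc 48 h 2 and 4 neither passed, at -0.64 against sham (q = 0.11) and -0.65 against Luc 24 h (q = 0.078), and without 1 and 3 both did. With equal totals the fall from 24 h to 48 h was -0.45 ± 0.23 (q = 0.14), since this scaling moves the median of all genes in that comparison from -0.25 to 0.18. Rgs2 had 35.4 and 65.2 CPM in sham and 13.4, 54.6 and 52.6 CPM at Luc 24 h, and did not pass at any time (q of at least 0.26 against sham).

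For both connexins the Luc group with the lowest mean was that of 24 h. Gja1 had 289 and 304 CPM in sham and 254, 290, 272 and 266 CPM at Luc 4 h. It had 212, 150 and 109 CPM at Luc 24 h, all below those 6 libraries. The fall was -0.97 ± 0.31 against sham (q = 0.020) and -0.83 ± 0.26 against Luc 4 h (q = 0.017), and without Luc 24 h D they were -0.73 (q = 0.099) and -0.60 (q = 0.12). The call against sham was also lost without sham 1 (q = 0.099) or sham 2 (q = 0.081). At Luc 48 h Gja1 had 200, 338, 146 and 440 CPM, with libraries 1 and 3 within the range of 24 h and libraries 2 and 4 above both sham hearts. The rise from Luc 24 h was 0.76 ± 0.26 (q = 0.022), lost without Luc 24 h C or D or Luc 48 h 2 or 4 (q of 0.056 to 0.16). It was 0.18 ± 0.22 without libraries 2 and 4 (q = 0.55) and 1.35 ± 0.21 without 1 and 3 (q = 8.3e-05). Against sham, Gja1 at Luc 48 h was -0.20 (q = 0.64), and it passed as lower without libraries 2 and 4 (-0.79, q = 0.013), while without 1 and 3 it was 0.38 (q = 0.26).

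Gja5 showed the same split. It had 4.66 and 4.44 CPM in sham, 5.35, 4.91, 6.84 and 4.57 CPM at Luc 4 h and 1.57, 1.79 and 1.37 CPM at Luc 24 h, which did not overlap. The fall from Luc 4 h to Luc 24 h was 1.31 ± 0.40 (q = 0.015), with q = 0.0505 without Luc 24 h D, and against the 2 sham hearts it was -1.11 ± 0.48 (q = 0.075). This same difference passed without Luc 48 h 1 and 3 (q = 0.0056), without 2 and 4 (q = 0.0044), without 1 or 4 alone (q of 0.035 and 0.026) and with only the groups compared (q = 0.0067). At Luc 48 h libraries 1 and 3 had 0.657 and 1.39 CPM, and libraries 2 and 4 had 4.97 and 9.04 CPM. Against sham the group differed by -0.50 (q = 0.43), and by -1.48 without libraries 2 and 4 (q = 0.00096). Against Luc 24 h it differed by 0.61 (q = 0.22), and by 1.59 without libraries 1 and 3 (q = 0.00032). These pairs are the pairs that all genes formed. The atrial gene Myl7 did not follow them, with 2.63, 1.49, 12.2 and 20.6 CPM in libraries 1 to 4, and it was higher at Luc 24 h (17.0 to 61.3 CPM), where Gja5 was low, than at Luc 4 h (at most 0.147 CPM). The summed arterial endothelial markers were 80.2 and 73.8 CPM in libraries 1 and 3 and 39.6 and 54.1 CPM in libraries 2 and 4, and the part of either list in the levels of Gja5 was not tested. From Luc 4 h to Luc 24 h, 2 of the 8 genes passed, both connexins, against 32.3% of all genes, and from Luc 24 h to Luc 48 h 4 of the 8 passed (Adra1b and Scn4b down, Grk5 and Gja1 up), against 41.9%.

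**Figure D3:**
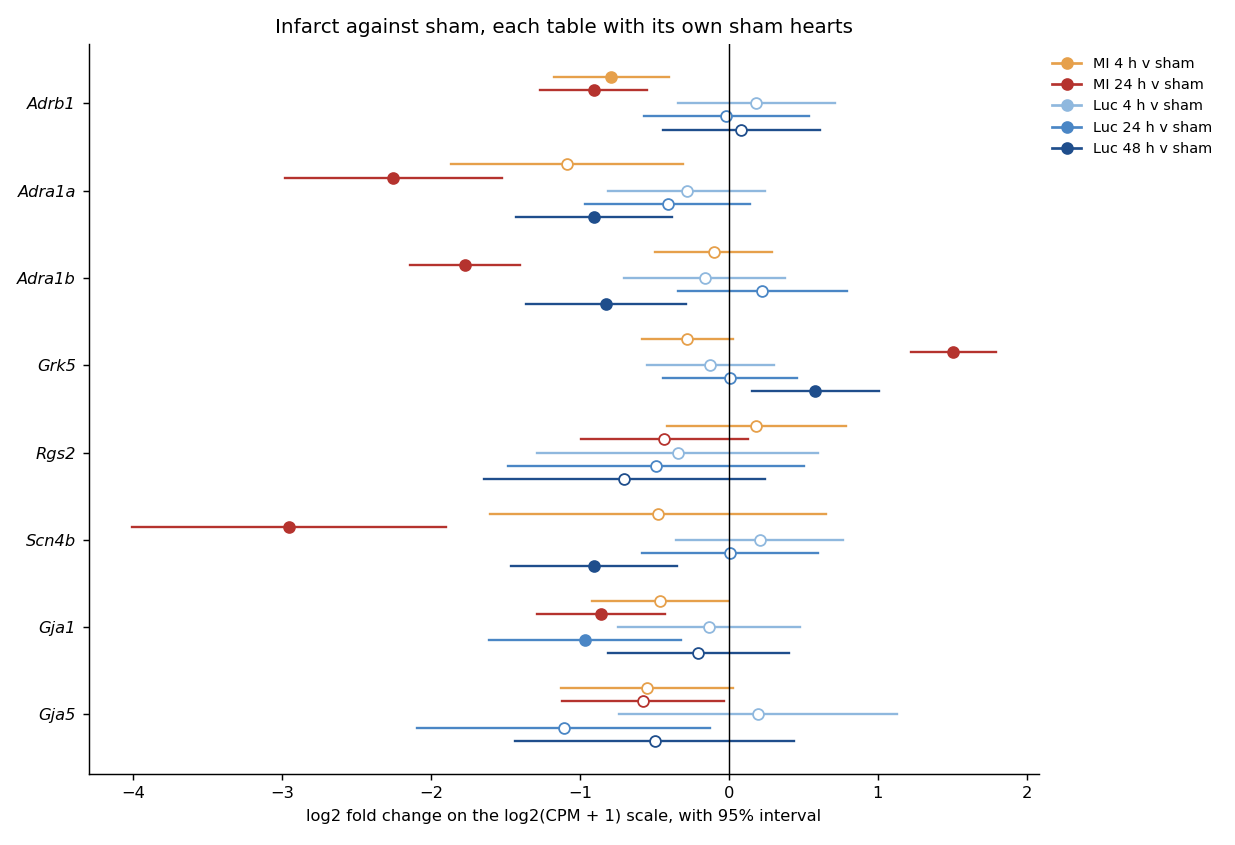
Log2 fold change of the 8 genes against the sham hearts of the same table (x axis, log2(CPM + 1) scale), with 95% intervals, for MI 4 h and 24 h (no injection) and Luc 4 h, 24 h and 48 h. Filled points have q under 0.05. Grk5 lies at 1.51 at MI 24 h, 0.01 at Luc 24 h and 0.58 at Luc 48 h, and Scn4b at -2.95, 0.01 and -0.91.

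AC was compared with Luc within each time. At 4 h and at 24 h none of the 8 genes passed (limma, unadjusted p under 0.05 for 0 of 8 at both times), and 1 gene of the whole table did at each time (0.00796%). The 95% interval of the log2 fold change was narrowest for Grk5, from -0.19 to 0.50 at 4 h and from -0.14 to 0.67 at 24 h, and wide for Gja5, from -0.91 to 0.62 and from -0.48 to 1.28. At 48 h 3 of the 8 passed, Scn4b down and Gja1 and Gja5 up, against 15.3% of all tested genes. In the same libraries the summed cardiomyocyte markers were 25973 to 32969 CPM with AC and 35116 to 48220 with Luc, the monocyte and macrophage markers 402 to 557 and 184 to 248 CPM, and the fibroblast markers 1335 to 2092 and 755 to 1170 CPM.

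Scn4b had 9.55, 13.3, 12.4 and 20.7 CPM in the AC libraries 1, 2, 4 and 5 at 48 h, against 29.3, 24.9, 42.2 and 23.1 CPM in the Luc libraries 1 to 4. Every AC library lay below every Luc library, as for 3.58% of all tested genes. The AC mean was 0.468 times the Luc mean (log2 fold change -1.06 ± 0.22, q = 0.0028). The call held whichever single library was left out (q of at most 0.019). Without Luc libraries 1 and 3 it was -0.79 ± 0.25 (q = 0.10), and without 2 and 4 it was -1.32 (q = 0.00083). At 24 h the AC hearts had 65.4, 82.2 and 64.0 CPM and the Luc hearts 60.5, 55.4 and 51.5 CPM, a difference of 0.33 ± 0.25 (q = 0.99). The AC against Luc difference at 48 h was 1.38 lower than that at 24 h (interaction, q = 0.029), where 2.56% of all genes passed and Scn4b was the 1 of 8 that did.

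The interaction of Scn4b was lost without any one of 8 libraries of the 24 h and 48 h groups (q of 0.052 to 0.072), and without Luc libraries 1 and 3 it was -1.11 (q = 0.14). Against 4 h it was -1.10 (q = 0.053), where 3.35% of all genes and none of the 8 passed, with an unadjusted p under 0.05 for 2 of the 8. Without Luc 48 h 2 and 4, the change from 24 h also passed for Gja1 (0.97, q = 0.028) and Gja5 (1.755, q = 0.0039), and the change from 4 h for Adrb1 (0.91, q = 0.027), Gja1 (1.26, q = 0.0027), Gja5 (2.30, q = 0.00017) and Scn4b (-1.36, q = 0.0087). The pair was picked from the same data, so these calls show dependence on libraries 2 and 4 and are no separate test. From 4 h to 24 h the AC against Luc difference changed for none of the 8 genes, and for 0.00796% of all genes, with an unadjusted p under 0.05 for 0 of the 8.

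Gja1 had 397, 405, 466.2 and 432 CPM with AC at 48 h, against 200, 338, 146 and 440 CPM with Luc, and the groups overlapped through Luc library 4. The difference was 0.72 ± 0.24 (q = 0.045). It was lost in 16 of the 24 fits that each left out 1 library, with q up to 0.23, and without Luc libraries 1 and 3 it was 0.14 ± 0.20 (q = 0.81). Gja5 had 6.53, 7.25, 10.0 and 7.96 CPM with AC, against 0.657, 4.97, 1.39 and 9.04 CPM with Luc. Its difference was 1.17 ± 0.37 (q = 0.035), lost without AC 48 h 2, 4 or 5 or Luc 48 h 1 or 3 (q of 0.069 to 0.16), and 0.19 ± 0.28 without Luc libraries 1 and 3 (q = 0.80). Without Luc libraries 2 and 4 instead, they were 1.305 ± 0.20 and 2.15 ± 0.27, so that the differences of both connexins rest on Luc libraries 1 and 3. Myl7 was 8.84 to 24.8 CPM in the AC libraries and 1.49 to 20.6 CPM in the Luc libraries at 48 h.

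The other 5 genes did not pass at 48 h. Adrb1 had 7.23, 6.94, 6.37 and 6.76 CPM with AC and 3.25, 5.90, 3.35 and 7.13 CPM with Luc, a difference of 0.46 ± 0.21 (q = 0.13), which passed without Luc library 4 (0.64, q = 0.030) and without Luc 2 and 4 (0.86, q = 0.0046). Grk5 had 20.1, 23.2, 25.0 and 24.4 CPM with AC, a difference of 0.29 ± 0.17 from Luc (95% interval -0.06 to 0.64). Adra1a had 3.16 to 3.90 CPM and Adra1b 10.8 to 18.0 CPM with AC, with differences of -0.16 ± 0.21 and -0.31 ± 0.21. Rgs2 differed by -0.13, with an interval from -0.90 to 0.64. With AC, all 4 libraries at 48 h had Grk5 at or above 20.1 CPM, and none of the Luc or AC libraries at 4 h exceeded 14.5. At 24 h the AC libraries A, C and D had 11.1, 21.5 and 13.8 CPM, so that C lay within the range of AC 48 h. The change of Grk5 with time under AC was not tested.

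**Figure D4:**
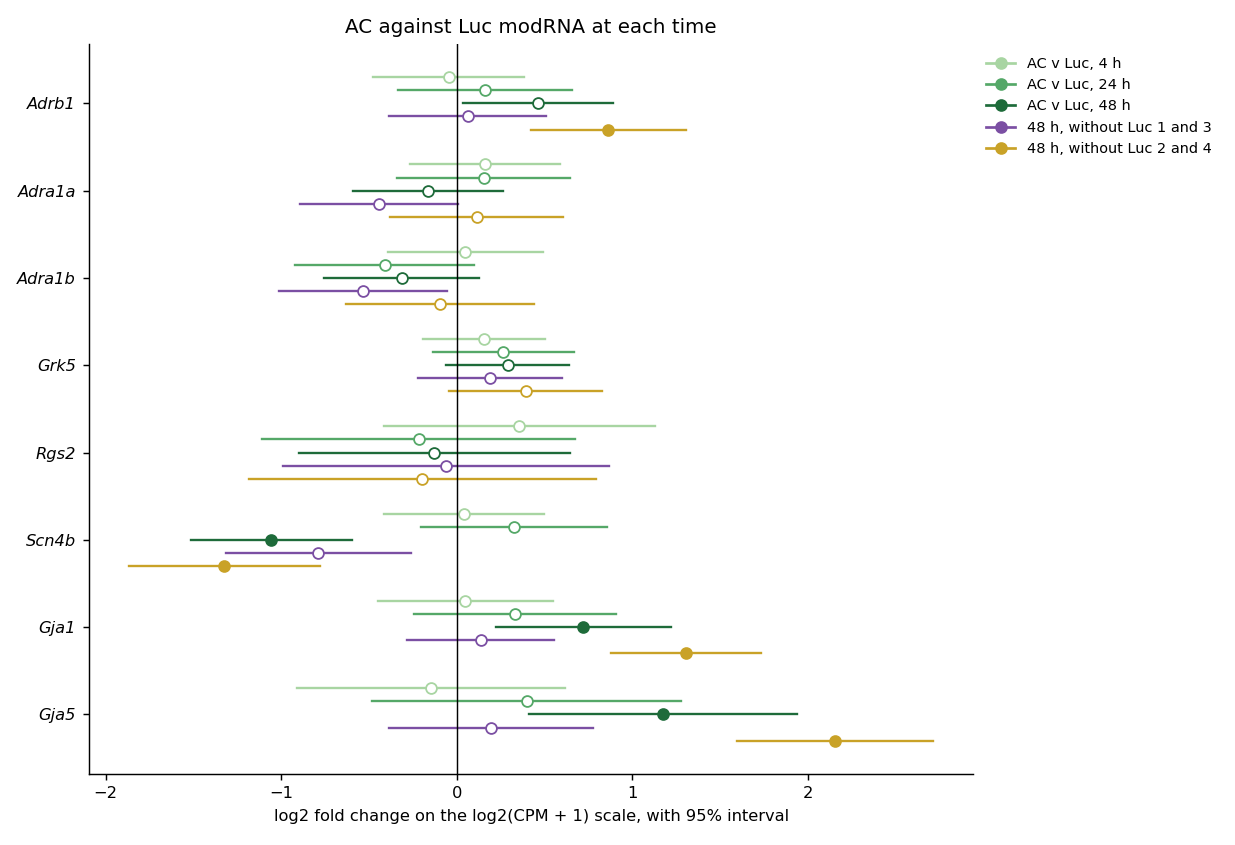
Log2 fold change of AC against Luc (x axis, log2(CPM + 1) scale) with 95% intervals at 4 h, 24 h and 48 h, and at 48 h without Luc libraries 1 and 3 or without 2 and 4. Filled points have q under 0.05. Gja1 moves from 0.72 to 0.14 and Gja5 from 1.17 to 0.19 without libraries 1 and 3, while Scn4b moves from -1.06 to -0.79.

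Other genes of the same pathways were read in the time course at 24 h, where 35.6% of all tested genes rose and 30.3% fell. No list was tested against these shares. The other GPCR kinases and arrestins rose in 4 of 6 and fell in none. They included the β-arrestins Arrb2 (2.08 ± 0.29, q = 7.8e-05) and Arrb1 (1.10 ± 0.17, q = 0.00016), which bind phosphorylated receptors, and Grk2 (0.51 ± 0.10, q = 0.00094). The list had a median of 0.51, and Grk5 at 1.51 moved in the same direction.

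Of 23 G proteins and effectors, 6 rose and 11 fell, with a median of -0.21, where 35.6% of all tested genes rose and 30.3% fell. The phosphodiesterases, which break down cAMP, were split: Pde4a fell by 2.30 ± 0.17 (q = 9.9e-07) and Pde4b rose by 1.66 ± 0.11 (q = 6.2e-07), already by 1.43 at 4 h (q = 5.5e-05). Adcy5, a main adenylyl cyclase of the heart, fell by 1.67 ± 0.15 (q = 3.2e-06). Among 11 other RGS proteins 5 rose and 4 fell, and Rgs16, Rgs14 and Rgs12 rose by 2.75, 2.23 and 1.98 (q of 2.0e-06, 3.7e-05 and 3.6e-06), unlike Rgs2.

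For the counts that follow, 30.3% of all tested genes fell and 35.6% rose. Of 7 other sodium channel subunits, 4 fell and none rose. Scn4a had the largest fall, from 25.4 to 2.41 CPM (-2.99 ± 0.25, q = 2.0e-06), close to that of Scn4b, followed by Scn7a (-1.70 ± 0.27, q = 0.00018) and Scn10a (-0.85 ± 0.21, q = 0.0040). The list had a median of -0.30. Of 3 other connexins, Gja3 fell from 14.6 to 3.14 CPM (-1.90 ± 0.16, q = 2.0e-06) and Gja4, the arterial endothelial connexin 37, rose from 7.49 to 13.3 CPM (0.74 ± 0.15, q = 0.0010). Of 11 intercalated disc partners, which hold the gap junctions in place, 7 fell and 2 rose, with the desmosomal cadherins Dsc2 and Dsg2 at -1.51 ± 0.22 (q = 0.00012) and -1.48 ± 0.20 (q = 5.7e-05) and Nrap at 1.39 ± 0.18 (q = 5.3e-05). Of 11 conduction regulators and pacemaker channels 5 fell and 1 rose. The pacemaker channel gene Hcn2 fell by 1.95 ± 0.20 (q = 9.3e-06) and Etv1, a regulator of fast conduction, by 1.62 ± 0.16 (q = 6.2e-06), and Id2 rose by 1.81 ± 0.26 (q = 9.9e-05), as it had at 4 h (1.85, q = 0.0051).

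**Figure D5:**
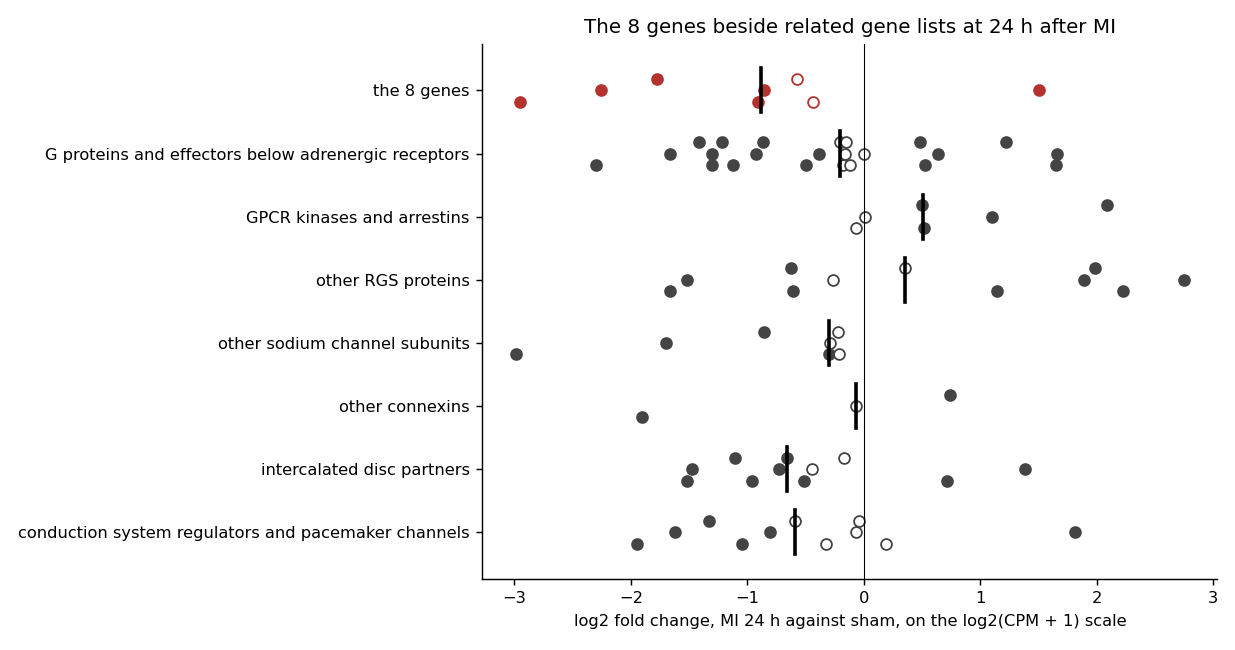
Log2 fold change at 24 h post-MI against sham in the time course (x axis, log2(CPM + 1) scale) for the 8 genes (red) and for 7 related lists (grey). Each point is a gene, filled where q is under 0.05, and the vertical bar is the list's median. The median of the 8 genes is -0.88, that of the GPCR kinases and arrestins 0.51 and that of the intercalated disc partners -0.66.

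The same named genes were compared in the modRNA table at 48 h, for AC against Luc. Scn4a fell from 10.8 to 7.11 CPM (-0.56 ± 0.19, q = 0.045), and Rgs16 rose from 2.94 to 7.23 CPM (1.08 ± 0.36, q = 0.046). Whether these calls hold without either Luc pair was not checked. Of all tested genes, 1926 passed in this comparison, and 346 did without Luc 48 h 1 and 3. None of the 11 disc partners, the 11 conduction regulators, the 3 other connexins or the 5 kinases and arrestins passed in that comparison. Of 23 G proteins and effectors 3 rose and 1 fell, where 12.1% of all tested genes rose and 3.27% fell. Against sham, Luc hearts at 48 h had, on the log2 scale, Arrb2 (1.62), Arrb1 (0.84), Rgs14 (1.35), Rgs12 (0.54) and Id2 (1.09) higher and Scn10a (-1.43), Scn4a (-1.19), Pde4a (-1.52), Gja3 (-0.91) and Dsg2 (-0.68) lower, with q of at most 0.029. The other 10 of these named genes did not pass in that comparison, where 30.1% of all tested genes did. Whether these calls hold without either sham heart or either Luc pair was not checked.

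The genes whose centred log2 profile lay nearest to each of the 8 were found over the 10 libraries of the time course, by the root mean square (RMS) difference among the 7695 genes averaging 10 CPM or more. Nearest to Adra1a were Perm1 (0.193) and Ppara (0.211), where the own RMS variation of Adra1a was 1.04, and nearest to Adra1b were Mterf2 (0.144) and Ccng1 (0.150). Adrb1 was nearest to Nacc2 (0.160) and Zbtb14 (0.161), Grk5 to Heatr1 (0.160) and Anxa4 (0.162), and Rgs2 to Dtx3 (0.201) and Spsb1 (0.228). Scn4b, which itself varied most (1.495), was nearest to Kcnj3 (0.437) and Dnajc28 (0.438). Gja1 was nearest to Zbtb4 (0.108) and Ago1 (0.110), and Gja5 to 2410131K14Rik (0.166) and Pds5b (0.199).

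Over the 24 libraries of the modRNA table none of these pairs recurred. There the nearest genes were Lztr1 (0.177) and St3gal2 (0.187) for Adrb1, Ganc (0.205) and Fhod3 (0.217) for Adra1a, Akt2 (0.245) and Sgca (0.246) for Adra1b, and Pcgf3 (0.160) and Sorbs2 (0.175) for Grk5. Scn4b lay nearest to Coq10a (0.347) and Hrc (0.370), Gja1 to Caprin1 (0.197) and Atp2c1 (0.206), Gja5 to Brip1os (0.337) and Chordc1 (0.351), and Rgs2 to 1810011O10Rik (0.384) and Eepd1 (0.433). The distance grows with a gene's own variation, which ran from 0.409 (Gja5) to 1.495 (Scn4b) in the time course, so it ranks neighbours of 1 gene and not the 8 genes. These distances describe likeness across libraries that differ in time and injury, and carry no test.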

How the data were processed

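RNA of mouse LV was sequenced in 10 and in 24 samples, and the paper describes poly(A) libraries. The authors used STAR and mm10 for alignment and Partek's E/M method with RefSeq genes for quantification, followed by TMM. The deposited values are CPM of the TMM-scaled library size. The modRNA table has 1 added to each deposited CPM, which was subtracted here. These methods are given with the time course, and the modRNA samples are not described there. The time-course libraries hold an estimated 12553519 to 18952669 reads on listed genes (the sum divided by the lowest value, taken as 1 read). Whole multiples of that value (within 0.01 reads) made up only 82.1% of values below 1 CPM, so no count test was run. The depth of the modRNA table is unknown. Neither source says whether modRNA libraries came from separate mice, so their p-values measure the spread between samples, which may be technical.

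Groups were taken from the labels. Genes averaging 1 CPM or more entered limma 3.58.1 (R 4.3.3, lmFit and eBayes with a trend) on log2(CPM + 1), with all groups of a table in 1 model and Benjamini-Hochberg adjustment over all genes tested. The script was tested on simulated data. Alternatives were pseudocounts of 0.1 and 2, no filter, only the groups compared, no trend, array weights, median-ratio and equal-total scaling, a replicate block, and each library left out. Leaving out pairs of Luc 48 h libraries was added after seeing the data. The genes and lists were chosen with earlier results of these data known. Named genes are the 8 genes, the 3 called genes of each related list with the largest change at 24 h post-MI, and the 2 genes nearest in profile. 1 related list is not reported here. Figures were drawn with matplotlib 3.10.9.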

Additional observations from a re-analysis of the deposited data

Results flagged for a closer look

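In 40 groups of 4 libraries (5 groups, 8 genes), 4 values lay farther from the other 3 than Dixon's 95% limit, and chance flags about 1 group in 20. They were Gja5 in MI 24 h D (2.50 CPM), Rgs2 in AC 4 h 1 (87.4 CPM, against 39.6 to 40.1 in the others), Adra1b in Luc 48 h 3 (10.8 CPM) and Adra1a in AC 48 h 1 (3.16 CPM). AC 4 h 1 also held the most of the summed erythrocyte markers, 10695 CPM against 2436 to 6308 in the other AC 4 h libraries.

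Steps between times were tested directly. In the time course from 4 h to 24 h they passed for Adra1a (-1.17), Adra1b (-1.67), Grk5 (1.79) and Scn4b (-2.48). With Luc they passed from 4 h to 24 h for Gja1 (-0.83) and Gja5 (-1.31), and from 24 h to 48 h for Adra1b (-1.05), Scn4b (-0.92), Grk5 (0.57) and Gja1 (0.76). The AC against Luc difference of Scn4b changed by -1.38 from 24 h to 48 h.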

How the results depend on the processing

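Of the 8 genes, the number passing at MI 24 h against sham (6) stayed between 6 and 7 over the single libraries left out, and at MI 24 h against 4 h (4) between 4 and 5. The other numbers moved further: MI 4 h against sham (1) 0 to 2, Luc 24 h against sham (1) 0 to 2, Luc 48 h against sham (4) 0 to 4, Luc 24 h against 4 h (2) 0 to 2, Luc 48 h against 24 h (4) 2 to 5, AC against Luc at 48 h (3) 1 to 4, its change from 24 h (1) 0 to 1 and from 4 h (0) 0 to 2. Array weights gave 3 at MI 4 h against sham, 2 at Luc 48 h against sham and 0 for the change from 24 h to 48 h. Fits of only the groups compared gave 2 at MI 4 h, 2 at Luc 24 h and 0 at Luc 48 h against sham, 1 for AC against Luc at 48 h and 0 for its change from 24 h. Median-ratio scaling gave 1 for AC against Luc at 48 h and 1 for its change from 4 h, and equal totals gave 2 at Luc 48 h against 24 h. Leaving out Luc 48 h 1 and 3, chosen after seeing the data, gave 2 at Luc 24 h and 2 at Luc 48 h against sham, 0 for AC against Luc at 48 h and 0 for its change from 24 h. Leaving out 2 and 4 gave 2 at Luc 24 h against sham, 2 at Luc 48 h against 24 h, and 3 and 4 for the changes from 24 h and from 4 h. The number of all genes passing moved too: MI 4 h against sham from 296 to 2500 with array weights and 117 with the block, Luc 48 h against sham from 3774 to 2227 with weights, and AC against Luc at 48 h from 1926 to 346 without Luc 48 h 1 and 3, 3815 without 2 and 4 and 977 with the block. The causes were not tested.

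Deviations of same-numbered libraries from their group means correlated at -0.265 to 0.345, and the main model held no pairing. In groups this small, centred on their own means, these values cannot decide whether the numbers mark pairs. With a replicate block, 0 genes passed at MI 4 h against sham, 2 at Luc 48 h against sham and 1 for AC against Luc at 48 h, and Gja5 at MI 24 h against 4 h was 0.24. The block could not be fitted for Luc 24 h against sham or 4 h, or Luc 48 h against 24 h.

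Signs turned, by a move of over 1 SE, for these differences, none of which had passed. With equal totals Luc 24 h against sham gave Adra1b -0.077, Grk5 -0.28 and Scn4b -0.30, Luc 24 h against 4 h gave Grk5 -0.072 and Luc 48 h against 24 h gave Rgs2 0.25. Array weights gave Gja1 0.11 at Luc 48 h against sham. Without Luc 48 h 1 and 3, Gja1 was 0.38 and Gja5 0.48 at Luc 48 h against sham, and the changes from 24 h were -0.10 for Adrb1, -0.20 for Gja1 and -0.20 for Gja5. Without 2 and 4, Adra1a was 0.11 for AC against Luc at 48 h, Adrb1 -0.32 at Luc 48 h against sham, and Adrb1 -0.30 and Gja5 -0.37 at Luc 48 h against 24 h. Over single libraries left out, Luc 4 h against sham ranged from -0.62 to 0.053 for Adra1a, -0.76 to 0.43 for Adra1b and -0.16 to 0.57 for Scn4b. Luc 24 h against sham ranged from -0.37 to 0.82 for Adra1b, -0.92 to 0.15 for Rgs2 and -0.36 to 0.37 for Scn4b, and against 4 h from -0.48 to 0.50 for Rgs2. AC against Luc at 24 h ranged from -0.11 to 0.38 for Adrb1 and -0.86 to 0.21 for Rgs2, and Gja5 at MI 24 h against 4 h from -0.29 to 0.29. With 2 sham hearts in the modRNA table and unknown depth there, small differences against sham were not resolved.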
